A study of Homo sapiens with 16 samples.

Results

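The p38 and JNK kinases, their upstream kinases MKK3, MKK6 and MKK4, and the response of their transcripts to corin are described here in BRAF inhibitor-resistant (BRAFi-R) melanoma cells. The 10 genes were taken by symbol out of the 34228 genes counted. They are the p38 genes MAPK14, MAPK11, MAPK12 and MAPK13, the JNK genes MAPK8, MAPK9 and MAPK10, and the upstream kinase genes MAP2K3, MAP2K6 and MAP2K4. All 10 were found in the table of counts. RNA-Seq was performed on 451Lu-R and 1205Lu-R cells, human melanoma lines grown under rising doses of the BRAF inhibitor PLX4032 (vemurafenib) until resistant and then kept in it. Each line was treated with 2.5 μM corin or with its vehicle DMSO for 24 hours, giving 4 groups of 2 libraries. PLX4032 was given to other libraries of the series and was not part of the treatment of these 4 groups. Corin is a hybrid molecule that inhibits the deacetylase and demethylase enzymes of the CoREST repressor complex. Each genetic background is a single line. The labels do not say whether replicates were separate cultures, so the p-values below measure only the spread between these libraries, which may be technical.

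The p38 and JNK kinases are mitogen-activated protein kinases (MAPKs) that respond to stress, cytokines and DNA damage. They are switched on by phosphorylation, which MAP2K enzymes carry out after they have themselves been phosphorylated by MAP3K enzymes. MKK3 and MKK6 act on p38, MKK7 on JNK, and MKK4 mainly on JNK and also on p38, and dual-specificity phosphatases (DUSPs) switch the kinases off again. RNA-Seq counts the transcripts of these genes and does not measure phosphorylation or protein.

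The libraries held 9516687 to 11797788 estimated counts each, and levels are given in CPM (counts scaled to a common library total). Of the melanocytic marker genes MITF, SOX10, PMEL, MLANA, TYR, TYRP1, DCT and S100B, all 8 were above 3 counts in 451Lu-R, with a summed level of 13700 CPM in both DMSO libraries and 11700 CPM in both corin libraries. PMEL made up most of this sum, with means of 8440 CPM under DMSO and 7230 CPM under corin. Mean MITF fell there from 793 to 287 CPM and SOX10 from 758 to 234 CPM. DCT alone of the 8 rose, from 1670 to 2680 CPM. In 1205Lu-R the same genes summed to 8.29 to 8.56 CPM under DMSO, where SOX10, TYR and TYRP1 were at 0. Under corin they summed to 23.2 to 26.5 CPM, with mean MITF at 15.8 CPM against 7.18 CPM under DMSO. The 4 markers of undifferentiated melanoma cells (AXL, NGFR, EGFR and WNT5A) were summed as well. In 1205Lu-R the sum was 1250 to 1260 CPM under DMSO and 803 to 815 CPM under corin. In 451Lu-R it was 8.02 to 8.07 CPM under DMSO and 371 to 379 CPM under corin. The members of this list did not move alike. In 1205Lu-R mean AXL fell from 962 to 476 CPM and WNT5A from 194 to 37.5 CPM. There NGFR rose from 5.86 to 202 CPM, while EGFR was at 96.2 and 93.7 CPM. In 451Lu-R NGFR rose from 1.06 to 351 CPM, most of the sum, and AXL from 0.111 to 2.4 CPM. Leukocyte markers summed to at most 1.61 CPM, keratinocyte markers to at most 5.39 CPM and endothelial markers to at most 27.6 CPM in any library. The part that the melanocytic and undifferentiated markers play in the results below was not tested, and in bulk RNA a smaller number of cells of one kind and less RNA per cell cannot be told apart.

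Promoters are shown for 4 genes picked by their response, MAP2K3 and MAP2K6, which rose under corin, and MAPK11 and MAPK12, which fell. MAPK8 and MAPK9 also rose together in both lines, but their promoters are not shown. The sequences are from RefSeq (GRCh38.p14), run 5′ to 3′ on the gene's own strand, and cover 250 bases before to 50 bases after the start site nearest the gene's annotated 5′ end. Capitals mark matches on either strand to any of 7 motifs: the AP-1 site TGANTCA, the CRE site TGACGTCA, the GC box GGGCGG, the E-box CACGTG, the MITF E-box CATGTG, the CCAAT box CCAAT and the TATA box TATAAA. None of these 7 motifs contains another.
MAP2K3 promoter, chr17:21284461-21284760, plus strand: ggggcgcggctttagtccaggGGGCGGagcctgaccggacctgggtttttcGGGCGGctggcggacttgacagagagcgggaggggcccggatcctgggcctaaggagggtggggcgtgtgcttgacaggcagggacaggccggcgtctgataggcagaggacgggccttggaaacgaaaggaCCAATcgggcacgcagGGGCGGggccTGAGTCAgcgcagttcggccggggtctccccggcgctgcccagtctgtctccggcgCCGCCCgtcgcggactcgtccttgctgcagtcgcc
MAP2K6 promoter, chr17:69414447-69414746, plus strand: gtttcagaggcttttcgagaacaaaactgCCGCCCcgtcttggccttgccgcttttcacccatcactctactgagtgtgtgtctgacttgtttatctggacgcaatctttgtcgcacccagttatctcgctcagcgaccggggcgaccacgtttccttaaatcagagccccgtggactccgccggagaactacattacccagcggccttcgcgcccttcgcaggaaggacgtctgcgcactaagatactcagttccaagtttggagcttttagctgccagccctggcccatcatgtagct
MAPK11 promoter, chr22:50270331-50270630, minus strand: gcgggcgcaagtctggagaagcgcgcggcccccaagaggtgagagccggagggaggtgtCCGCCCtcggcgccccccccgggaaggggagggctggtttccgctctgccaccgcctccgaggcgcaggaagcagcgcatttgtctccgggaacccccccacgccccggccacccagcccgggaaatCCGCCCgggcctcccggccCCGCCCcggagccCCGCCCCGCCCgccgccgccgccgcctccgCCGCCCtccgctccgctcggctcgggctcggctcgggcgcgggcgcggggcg
MAPK12 promoter, chr22:50261634-50261933, minus strand: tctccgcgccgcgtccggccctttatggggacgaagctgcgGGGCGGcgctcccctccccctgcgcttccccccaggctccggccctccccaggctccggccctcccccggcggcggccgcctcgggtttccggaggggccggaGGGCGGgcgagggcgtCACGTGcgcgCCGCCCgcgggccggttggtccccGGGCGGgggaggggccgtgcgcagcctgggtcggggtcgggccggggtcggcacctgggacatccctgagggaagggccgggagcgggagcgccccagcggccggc
The MAP2K3 promoter held 4 GC boxes, 1 AP-1 site and 1 CCAAT box. The MAP2K6 promoter held 1 GC box and no other match. The promoters of the adjacent genes MAPK11 and MAPK12 held 6 and 4 GC boxes, and that of MAPK12 also 1 E-box. Of 35116 promoters of this length, 45.0% had a GC box, 34.6% a CCAAT box, 7.71% an AP-1 site and 7.26% an E-box. The MAPK11 and MAPK12 promoters had 44 and 42 CpG dinucleotides, those of MAP2K3 and MAP2K6 had 30 and 20, and the median of all promoters was 14. Of the promoters not shown, MAPK8 had 46, MAPK9 47, MAPK13 46, MAP2K4 38, MAPK14 24 and MAPK10 1. The MAPK10 window, chr4:86370818-86371117, lies inside the gene, far from its annotated 5′ end at 86594625. Genes that rose and genes that fell overlapped in their number of CpG, and its part in the response was not tested. These matches describe the letters and are not evidence that a factor binds there.

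With corin, transcripts of both p38-specific upstream kinases and of the JNK genes MAPK8 and MAPK9 were higher in both cell lines. The p38 genes divided, with MAPK14 higher and MAPK11 and MAPK12 lower. In 451Lu-R, 9 of the 10 genes passed edgeR's filter on low counts, and all 9 were called at an adjusted p under 0.05 by its quasi-likelihood test, 6 higher and 3 lower. In that comparison 79.9% of the 14530 genes tested were called, 41.3% higher and 38.6% lower, so a call by itself sets no gene apart. In 1205Lu-R all 10 genes were tested, 7 were higher and 2 lower, against 78.3% of 14563 genes called, 40.4% higher and 37.8% lower. The size of the change was therefore counted too. MAPK10 in both lines and MAPK13 in 1205Lu-R passed the filter only through their corin libraries. They could hardly have been called lower, so their part in the counts above and below says little. At a change of at least 2-fold, 4 of 9 genes were called in 451Lu-R (MAP2K3, MAP2K6, MAPK10 and MAPK8, all higher) beside 35.6% of all genes tested, and 5 of 10 in 1205Lu-R (MAP2K3, MAP2K6, MAPK10 and MAPK13 higher, MAPK11 lower) beside 31.8%. The median absolute log2 fold change of the genes was 0.85 in 451Lu-R and 1.0 in 1205Lu-R, beside 0.69 and 0.63 over all genes tested.

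Among the p38 genes, MAPK14 encodes p38α, the broadly expressed isoform. In 451Lu-R its level was 52.6 and 54.0 CPM under DMSO and 76.8 and 79.0 CPM under corin. The 1205Lu-R libraries gave 58.6 and 58.8 CPM under DMSO and 78.1 and 76.5 CPM under corin. Every corin library was above every DMSO library, and the corin libraries of the 2 lines overlapped at the top. The log2 fold change was 0.65 (SE 0.056, edgeR adjusted p = 2.0e-09) in 451Lu-R and 0.32 (SE 0.05, edgeR adjusted p = 5.41e-06) in 1205Lu-R, increases of 1.57-fold and 1.25-fold.

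MAPK11, which encodes p38β, moved the other way. Its level was 23.3 and 22.4 CPM under DMSO and 11.8 and 11.9 CPM under corin in 451Lu-R. The 1205Lu-R libraries gave 39.1 and 37.9 CPM under DMSO and 18.8 CPM in both corin libraries. The groups did not overlap in either line, and the corin level of 1205Lu-R lay below the DMSO level of 451Lu-R. The log2 fold change was -0.85 (SE 0.10, edgeR adjusted p = 3.66e-07) in 451Lu-R and -1.11 (SE 0.083, edgeR adjusted p = 5.19e-11) in 1205Lu-R.

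MAPK12, which encodes p38γ, was also lower under corin. It was counted at 52.5 and 44.2 CPM under DMSO and 32.1 and 31.0 CPM under corin in 451Lu-R, and at 21.1 and 23.0 CPM under DMSO and 11.5 and 12.7 CPM under corin in 1205Lu-R. The 4 groups were all apart, with both 451Lu-R groups above both 1205Lu-R groups. The log2 fold change was -0.52 (SE 0.083, edgeR adjusted p = 1.04e-05) in 451Lu-R and -0.93 (SE 0.11, edgeR adjusted p = 1.26e-07) in 1205Lu-R. The annotation gives MAPK12 and HDAC10, a deacetylase gene, 2763 exonic bases in common on the same strand, so the division of reads between them is uncertain. HDAC10 itself had a log2 fold change of -0.52 in 451Lu-R (edgeR adjusted p = 2.95e-05) and of -0.33 in 1205Lu-R, which was not called (edgeR adjusted p = 0.217), and its part in the MAPK12 values was not tested.

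MAPK13, which encodes p38δ, was near the limit of detection in 3 of the 4 groups. In 451Lu-R it had 8.1 and 10.3 counts in the DMSO libraries against 5.1 and 7.8 in the corin libraries, too few for the filter, and no difference was detectable at this depth. In 1205Lu-R it had 20.3 and 8.8 counts under DMSO (1.83 and 0.828 CPM) and 88.2 and 120.1 counts under corin (9.27 and 10.8 CPM). Both corin libraries of 1205Lu-R were above all the other libraries, while the other groups lay between 0.431 and 1.83 CPM. Its log2 fold change in 1205Lu-R was 2.83 (SE 0.25, edgeR adjusted p = 1.11e-09), a 7.11-fold increase. MAPK13 passed the filter in that line only through the corin libraries, where it was high, so it could hardly have been called lower.

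**Figure D1:**
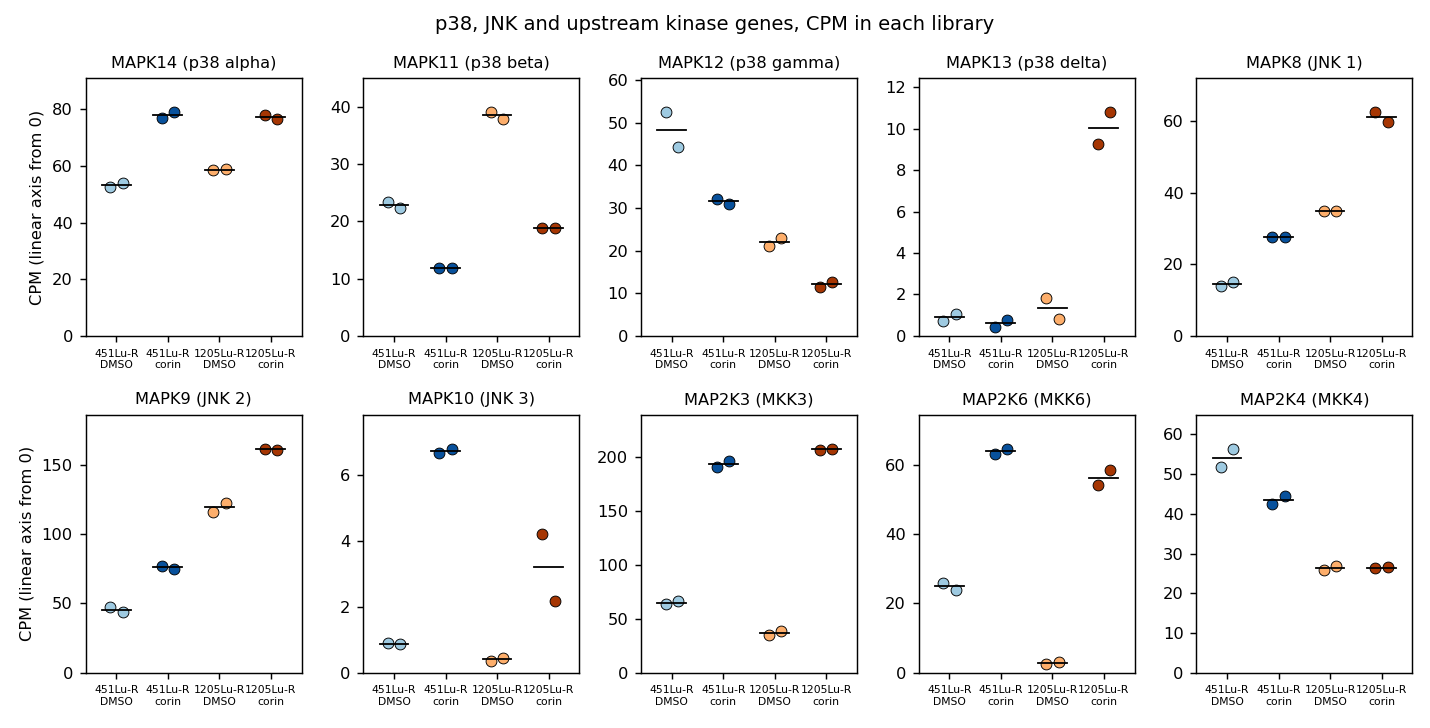
Level of each gene in CPM (vertical axis, linear and starting at 0) in the 4 groups (horizontal axis). Each point is 1 library, and each black line is the mean of the 2 libraries. MAP2K6 in 1205Lu-R went from 2.52 and 2.97 CPM under DMSO to 54.2 and 58.5 CPM under corin, while MAPK11 and MAPK12 fell in both lines.

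Of the JNK genes, MAPK8 and MAPK9 were higher under corin in both lines, and so was MAPK10, on few counts. MAPK8, which encodes JNK1, was at 14.0 and 15.0 CPM under DMSO and 27.7 CPM in both corin libraries of 451Lu-R, and at 35.0 CPM in both DMSO libraries and 62.6 and 59.8 CPM under corin in 1205Lu-R. The 4 groups were apart, and the corin level of 451Lu-R remained below the DMSO level of 1205Lu-R. The log2 fold change was 1.04 (SE 0.095, edgeR adjusted p = 4.5e-09) in 451Lu-R and 0.73 (SE 0.064, edgeR adjusted p = 7.61e-10) in 1205Lu-R.

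MAPK9, which encodes JNK2, showed the same order of groups. Its level was 47.8 and 43.5 CPM under DMSO and 77.0 and 75.2 CPM under corin in 451Lu-R, and 116 and 123 CPM under DMSO and 162 and 161 CPM under corin in 1205Lu-R. No group overlapped another. The log2 fold change was 0.83 (SE 0.061, edgeR adjusted p = 1.66e-10) in 451Lu-R and 0.36 (SE 0.039, edgeR adjusted p = 2.62e-08) in 1205Lu-R.

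MAPK10 encodes JNK3, the isoform best known from neurons, and had few counts. It passed edgeR's filter in both lines only through its corin libraries, so it could hardly have been called lower. In 451Lu-R it rose from 9.8 and 8.3 counts under DMSO (0.898 and 0.855 CPM) to 78.7 and 68.0 counts under corin (6.67 and 6.80 CPM). In 1205Lu-R it rose from 4.0 and 4.8 counts (0.361 and 0.452 CPM) to 40.2 and 24.2 counts (4.22 and 2.18 CPM). The corin libraries of 1205Lu-R lay wide apart but both were above every DMSO library. The log2 fold change was 3.03 (SE 0.28, edgeR adjusted p = 7.02e-09) in 451Lu-R and 2.81 (SE 0.47, edgeR adjusted p = 1.48e-05) in 1205Lu-R. MAPK10 is a gene of 604.6 kb with 192 annotated transcripts, and its exons overlap those of ARHGAP24 by 999 bases and those of PTPN13 by 311 bases on the opposite strand. Whether the counting used strand is not given in the sources used here, and without strand the reads of such overlaps cannot be told apart. ARHGAP24 changed by -1.15 in 451Lu-R (edgeR adjusted p = 1.28e-05) and by 0.06 in 1205Lu-R (edgeR adjusted p = 0.842), and PTPN13 by 0.82 (edgeR adjusted p = 1.75e-11) and 1.05 (edgeR adjusted p = 3.93e-11). Their part in the MAPK10 counts was not tested.

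MAP2K3 and MAP2K6, the genes of the p38-specific upstream kinases, rose in both lines. MAP2K3, which encodes MKK3, was at 63.5 and 66.4 CPM under DMSO and 191 and 197 CPM under corin in 451Lu-R. The 1205Lu-R libraries gave 34.7 and 39.0 CPM under DMSO and 207 and 208 CPM under corin. The DMSO levels of the lines were apart and the corin levels close together. The log2 fold change was 1.68 (SE 0.042, edgeR adjusted p = 5.26e-18) in 451Lu-R and 2.42 (SE 0.048, edgeR adjusted p = 4.39e-21) in 1205Lu-R, increases of 3.20-fold and 5.35-fold.

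MAP2K6, which encodes MKK6, had the largest increase of the 10 genes in 1205Lu-R. Its level in 451Lu-R was 26 and 23.8 CPM under DMSO and 63.2 and 64.7 CPM under corin. The 1205Lu-R libraries gave 2.52 and 2.97 CPM (27.9 and 31.6 counts) under DMSO and 54.2 and 58.5 CPM (515.9 and 650.5 counts) under corin. Both corin groups were above both DMSO groups, and the DMSO libraries of 1205Lu-R stood apart at the bottom. The log2 fold change was 1.46 (SE 0.073, edgeR adjusted p = 3.6e-13) in 451Lu-R, an increase of 2.74-fold, and 4.27 (SE 0.12, edgeR adjusted p = 2.05e-18) in 1205Lu-R, an increase of 19.3-fold. This placed MAP2K6 at rank 574 from the highest of 14563 genes in 1205Lu-R, and at rank 2405 of 14530 in 451Lu-R.

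MAP2K4, which encodes MKK4, did not follow MAP2K3 and MAP2K6. It was at 51.7 and 56.4 CPM under DMSO and 42.5 and 44.5 CPM under corin in 451Lu-R, and at 25.9 and 26.8 CPM under DMSO and 26.3 and 26.5 CPM under corin in 1205Lu-R. The groups were apart in 451Lu-R and overlapped in 1205Lu-R. The log2 fold change in 451Lu-R was -0.21 (SE 0.069, edgeR adjusted p = 0.00788), a call that was lost with DESeq2 (adjusted p = 0.139), without 451Lu-R DMSO replicate 2 (edgeR adjusted p = 0.0638) and without 451Lu-R corin replicate 1 (edgeR adjusted p = 0.0549). The 1205Lu-R libraries gave -0.07 (edgeR adjusted p = 0.433), with a 95% interval of -0.25 to 0.10. MAP2K7, which encodes MKK7, the JNK-specific upstream kinase, was lower under corin, with log2 fold changes of -0.60 in 451Lu-R (edgeR adjusted p = 1.05e-06) and -0.47 in 1205Lu-R (edgeR adjusted p = 3.74e-05). Neither upstream kinase of JNK was called higher in either line, while the JNK genes MAPK8 and MAPK9 were.

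**Figure D2:**
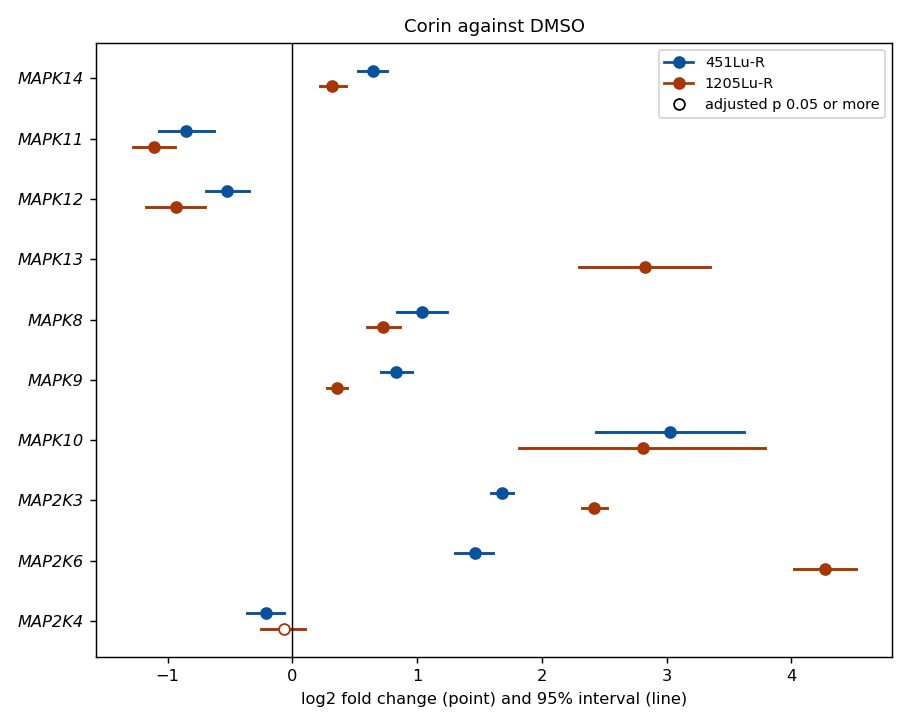
Corin against DMSO for each gene (vertical axis) as a log2 fold change (horizontal axis) in 451Lu-R (blue) and 1205Lu-R (brown). Points are edgeR estimates from 2 libraries a group and lines are 95% intervals of each gene alone, not adjusted for the number of genes. An open point marks an adjusted p of 0.05 or more, and MAPK13 was not tested in 451Lu-R. MAP2K6 reached 4.27 in 1205Lu-R against 1.46 in 451Lu-R, whereas MAPK11 and MAPK12 lay below 0 in both.

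The corin response itself differed between the cell lines for several of these genes. An interaction term over the 8 libraries called 7 of 10 genes, 3 with a response further upward in 1205Lu-R and 4 with a response further downward, where 49.7% of the 16062 genes tested were called, 22.6% and 27.1% in these directions. The response of MAP2K6 was higher in 1205Lu-R by 2.78 on the log2 scale (SE 0.16, edgeR adjusted p = 3.12e-12), that of MAPK13 by 3.24 (SE 0.64, edgeR adjusted p = 0.000248) and that of MAP2K3 by 0.70 (SE 0.072, edgeR adjusted p = 4.06e-08). The MAPK13 value rests on 5.1 to 10.3 counts per library in 451Lu-R. The increase of MAPK9 was smaller in 1205Lu-R by a log2 difference of -0.51 (SE 0.071, edgeR adjusted p = 3.03e-06) and that of MAPK14 by -0.36 (SE 0.07, edgeR adjusted p = 0.000193). Scaled by library size alone, which moved the median of all genes by 0.21, the MAPK14 difference was -0.15 and not called (edgeR adjusted p = 0.0922).

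MAPK8 and MAPK12 had responses that differed less firmly. The MAPK8 difference was -0.35 (SE 0.11, edgeR adjusted p = 0.0125) and that of MAPK12 was -0.45 (SE 0.14, edgeR adjusted p = 0.0127). Neither was called with DESeq2 (adjusted p = 0.105 for MAPK8 and 0.0571 for MAPK12) or with library size alone (edgeR adjusted p = 0.361 and 0.171). The MAPK8 call was also lost without 451Lu-R DMSO replicate 1 (edgeR adjusted p = 0.0774), 451Lu-R corin replicate 1 (0.0561) or 1205Lu-R corin replicate 2 (0.0676). The MAPK12 call was lost without 451Lu-R corin replicate 1 (edgeR adjusted p = 0.0522), 1205Lu-R DMSO replicate 2 (0.0504) or 1205Lu-R corin replicate 1 (0.0868). A difference was not called for MAPK11 (-0.30, 95% interval -0.56 to -0.03 before adjustment, edgeR adjusted p = 0.0725), MAPK10 (-0.26, interval -1.78 to 1.26) or MAP2K4 (0.10, interval -0.11 to 0.32). The MAP2K4 difference became 0.31 with library size alone, and was then called (edgeR adjusted p = 0.0151).

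Between the cell lines under DMSO, MAPK8 and MAPK9 transcripts were more abundant in 1205Lu-R and upstream kinase transcripts more abundant in 451Lu-R. The test of 1205Lu-R against 451Lu-R under DMSO called 8 of 9 genes, 4 higher and 4 lower, where 82.5% of 14104 genes were called, 41.0% higher and 41.5% lower. MAPK8 was higher in 1205Lu-R by 1.38 on the log2 scale (SE 0.093, edgeR adjusted p = 8.32e-13) and MAPK9 by 1.49 (SE 0.056, edgeR adjusted p = 4.22e-18). MAP2K6 was lower in 1205Lu-R, with a log2 difference of -3.06 (SE 0.16, edgeR adjusted p = 3.06e-15), an 8.35-fold difference, and so were MAP2K4 (-0.93, SE 0.074, edgeR adjusted p = 2.58e-11) and MAP2K3 (-0.71, SE 0.067, edgeR adjusted p = 4.81e-10). Of the p38 genes, MAPK11 (0.86) and MAPK14 (0.25) were higher in 1205Lu-R and MAPK12 (-1.04) was lower. MAPK13 gave 0.71 with a 95% interval of -0.25 to 1.66 and was not called. MAPK10 had too few counts to be tested, with means of 0.876 CPM in 451Lu-R and 0.406 CPM in 1205Lu-R.

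With corin, the MKK3 and MKK6 transcripts of the lines lay close together. Here 8 of 10 genes were called, 4 higher and 4 lower, where 79.2% of 15363 genes were called, 39.0% higher and 40.2% lower. MAP2K3 differed by 0.01 between the lines (95% interval -0.06 to 0.07, edgeR adjusted p = 0.862), though with library size alone the difference was 0.10 and called (edgeR adjusted p = 0.0114). MAP2K6 differed by -0.27 (SE 0.059, edgeR adjusted p = 0.000419), where it had differed by -3.06 under DMSO. MAPK14 differed by -0.10 and was not called (95% interval -0.20 to 0.00, edgeR adjusted p = 0.0659). The JNK genes MAPK8 and MAPK9 were still higher in 1205Lu-R, by 1.05 (SE 0.067, edgeR adjusted p = 6.71e-11) and 0.99 (SE 0.04, edgeR adjusted p = 6.3e-14), and MAPK10 was lower (-1.20, SE 0.25, edgeR adjusted p = 0.000316). MAP2K4 (-0.81), MAPK12 (-1.47) and MAPK11 (0.58) kept the direction seen under DMSO, and MAPK13 was higher in 1205Lu-R by 3.96 (SE 0.30, edgeR adjusted p = 8.13e-10). MAPK13 passed the filter in this test only through the 1205Lu-R libraries, where it was high. The comparisons between the lines use the same libraries as those of corin against DMSO within each line and are not independent of them.

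**Figure D3:**
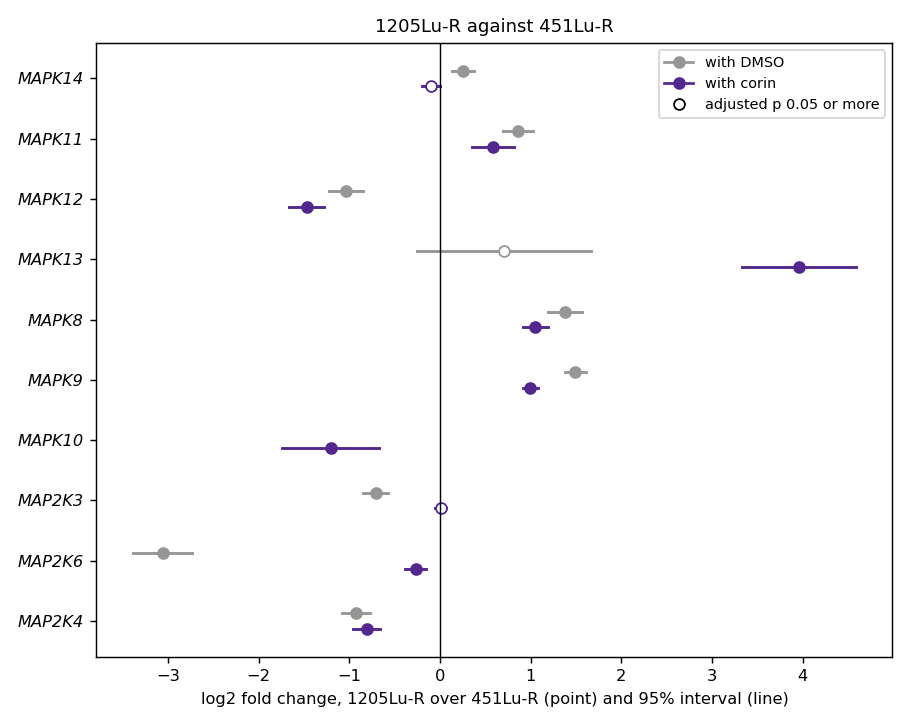
Difference of 1205Lu-R from 451Lu-R for each gene (vertical axis) as a log2 fold change (horizontal axis) under DMSO (grey) and under corin (purple). Points are edgeR estimates, lines are 95% intervals of each gene alone, open points were not called, and MAPK10 was not tested under DMSO. MAP2K6 lay at -3.06 under DMSO and at -0.27 under corin, and MAP2K3 at -0.71 and 0.01.

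To compare paralogs with each other, CPM was divided by the length of each gene's merged exons and expressed as a share of its family. MAPK14 rose from 36.4% ± 1.86 (SD, n = 2) of the p38 total under DMSO to 59.4% ± 0.525 under corin in 451Lu-R, and from 34.0% ± 0.432 to 54.1% ± 0.997 in 1205Lu-R. MAPK11 went from 39.1% ± 0.12 to 22.7% ± 0.0938 and from 56.0% ± 0.701 to 33.1% ± 0.133. The libraries of corin and DMSO were thus apart for both genes in both lines, with MAPK14 the leading p38 transcript under corin. Which one led under DMSO depended on the length used in both lines. With the longest transcript in place of merged exons, MAPK14 made up 42.2% and MAPK11 31.5% in 451Lu-R, and without division by length they made up 48.7% and 32% in 1205Lu-R. MAPK12 made up 23.9% and then 17.5% in 451Lu-R and 9.25% and then 6.14% in 1205Lu-R, while MAPK13 had a mean of 6.74% in 1205Lu-R under corin and means of 0.443% to 0.738% in the other groups. The summed p38 level was 21.7 ± 0.702 and 19.4 ± 0.215 CPM per kb in 451Lu-R and 25.6 ± 0.235 and 21.2 ± 0.0832 CPM per kb in 1205Lu-R under DMSO and corin. With merged exons or the longest transcript as the length, the sum was lower under corin in both lines, beyond the spread of 2 libraries. With the longest transcript the sum went only from 29.9 to 28.5 CPM per kb in 451Lu-R. These sums are without edgeR's TMM scaling. In 451Lu-R, scaling by library size alone moved the log2 changes of all genes by a median of -0.1 against TMM. The sums were not computed with TMM, so the decrease in 451Lu-R may depend on the scaling. Without division by length the summed p38 CPM of 451Lu-R was 129 and 122 under DMSO and 121 and 123 under corin, which overlapped.

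The JNK total rose with little change in its make-up, while the upstream kinases changed in both. MAPK9 made up 77.0% ± 2.06 of the JNK total under DMSO and 73.8% ± 0.34 under corin in 451Lu-R. The same shares were 78.6% ± 0.65 and 73.8% ± 0.616 in 1205Lu-R, so JNK2 led in every group. The JNK sum went from 6.62 ± 0.27 to 11.5 ± 0.139 CPM per kb in 451Lu-R and from 17 ± 0.545 to 24.4 ± 0.35 CPM per kb in 1205Lu-R. MAP2K3 led its set of 3, at 61.1% ± 0.282 under DMSO and 81.8% ± 0.121 under corin in 451Lu-R, and at 67.1% ± 1.21 under DMSO and 87.3% ± 0.247 under corin in 1205Lu-R. The group mean of MAP2K6 was at most 6.11% on this scale, on which its 16660 exonic bases weigh heavily. The summed level of the 3 upstream kinases was 28.2 ± 1.04 CPM per kb in 451Lu-R and 14.5 ± 0.934 in 1205Lu-R under DMSO, and 62.8 ± 1.33 and 62.9 ± 0.404 under corin, so the sums of the lines overlapped under corin and were apart under DMSO. These shares and sums were described over 2 libraries a group and not tested, since the smallest 2-sided p that an exact permutation test of 2 against 2 libraries allows is 0.333.

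**Figure D4:**
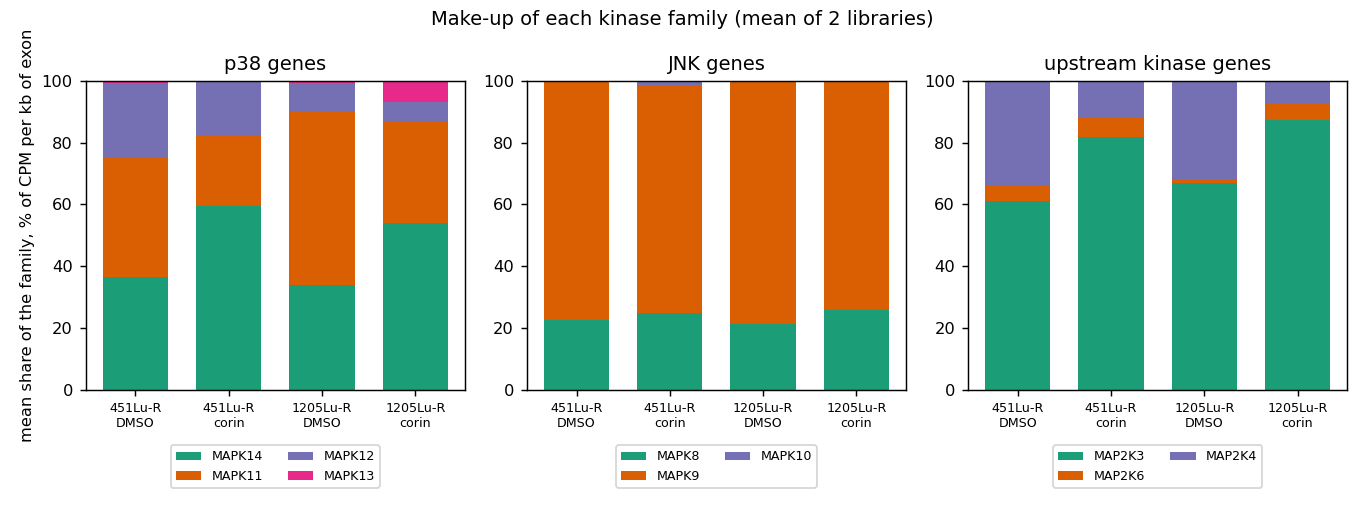
Share of each gene in its family (vertical axis, % of summed CPM per kb of merged exon, starting at 0) in the 4 groups (horizontal axis), as the mean of 2 libraries. The panels show the p38 genes, the JNK genes and the 3 upstream kinase genes. MAPK14 went from 36.4% to 59.4% in 451Lu-R and from 34.0% to 54.1% in 1205Lu-R, while MAPK9 led the JNK genes throughout.

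Several of the genes lie beside each other, which allows a look at neighbors. MAPK11 (chr22:50263713-50270767) and MAPK12 (chr22:50245450-50261716) lie 1996 bases apart on the minus strand (GRCh38, GENCODE 44), and both were lower under corin in both lines. Of the 10 genes tested within 100 kb of MAPK11 in 451Lu-R, 4 were higher and 3 lower, beside 41.3% and 38.6% of all genes. In 1205Lu-R 4 of 9 were higher and 4 lower, beside 40.4% and 37.8% of all genes. The lower ones include MAPK12 itself in both lines and, in 451Lu-R, HDAC10, whose exons overlap those of MAPK12. SELENOO, TUBGCP6, DENND6B and PANX2 were among those that rose in both lines, so both directions were seen in this stretch, as over all genes. MAPK14 (chr6:36027782-36111236) and MAPK13 (chr6:36127809-36144524) lie 16572 bases apart on the plus strand, and both rose in 1205Lu-R, while their neighbor BRPF3 fell in both lines (log2 fold changes of -0.87 for 451Lu-R and -1.31 for 1205Lu-R). The upstream kinase genes all lie on chromosome 17 but far from one another, MAP2K4 at chr17:12020829-12143830, MAP2K3 at chr17:21284672-21315232 and MAP2K6 at chr17:69414697-69553865. The JNK genes are on 3 chromosomes, MAPK8 at chr10:48306639-48439360, MAPK9 at chr5:180233143-180292099 and MAPK10 at chr4:85990007-86594625. NATD1 and KCNJ12, 31.3 and 61.1 kb from MAP2K3, rose with it in both lines, and TMEM11, 70.5 kb away, fell. These genes were named after their values were seen.

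Around the 10 kinases, 73 other genes of the same pathway were grouped by role, and 69 of them were tested in each line. In 451Lu-R 37 were higher and 22 lower, and in 1205Lu-R 31 were higher and 28 lower, with median log2 fold changes of 0.29 and 0.01 beside 0.03 over all genes in each line. Of all genes tested in 451Lu-R 41.3% were higher and 38.6% lower, and of those tested in 1205Lu-R 40.4% were higher and 37.8% lower, which is the background for these counts and for those of each role. Of the MAP3K genes, 7 of 18 were higher and 7 lower in 451Lu-R, near the shares of all genes, and 5 higher and 12 lower in 1205Lu-R, where 37.8% of all genes were lower. MAP3K11 (MLK3, which activates MKK4 and MKK7) fell in both, from a mean of 245 to 26.9 CPM in 451Lu-R and from 88.7 to 20.8 CPM in 1205Lu-R, with log2 fold changes of -3.10 (SE 0.052, edgeR adjusted p = 1.0e-20) and -2.16 (SE 0.078, edgeR adjusted p = 1.66e-16). MAP3K5 (ASK1, which activates the p38 and JNK branches after oxidative stress) moved in opposite directions, by 1.65 in 451Lu-R (3.22 to 9.37 CPM) and by -0.77 in 1205Lu-R (25.9 to 16 CPM), an interaction of -2.46 (SE 0.20, edgeR adjusted p = 1.25e-09). Its close relatives MAP3K15 (ASK3) and MAP3K6 (ASK2) went apart, MAP3K15 higher by 3.41 in both lines from a mean of under 1 CPM, and MAP3K6 lower by -1.58 and -1.77.

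Among scaffolds and binding partners, 8 of 12 genes were higher and 2 lower in 451Lu-R, and 8 higher and 3 lower in 1205Lu-R, where 41.3% and 40.4% of all genes were higher, with medians of 0.78 and 0.47. GADD45B and GADD45A, stress-induced proteins that bind MAP3K4, rose by 3.32 and 2.93 in 451Lu-R and by 3.14 and 1.52 in 1205Lu-R, and the JNK scaffold gene MAPK8IP2 rose by 1.88 and 0.31. TRAF6, a ubiquitin ligase upstream of TAK1, rose by 0.84 and 0.90. Of the phosphatases, 8 of 10 were higher and 2 lower in 451Lu-R, and 5 higher and 1 lower in 1205Lu-R, against the same 41.3% and 40.4% of all genes higher. DUSP1, which inactivates p38 and JNK, went from a mean of 8.25 ± 0.26 to 89.7 ± 0.828 CPM (SD, n = 2) in 451Lu-R and from 16.4 ± 2.72 to 137 ± 5.59 CPM in 1205Lu-R, with log2 fold changes of 3.54 (SE 0.083, edgeR adjusted p = 1.94e-18) and 2.98 (SE 0.07, edgeR adjusted p = 7.76e-20). DUSP8 rose by 1.65 and 1.99, DUSP9 by 0.93 and 3.0, and DUSP2 by 3.21 in 1205Lu-R. The 1205Lu-R values rest on few DMSO counts, 4 and 1 for DUSP9 (SE 0.56) and 3 and 8 for DUSP2 (SE 0.37). In 451Lu-R DUSP2 had at most 6 counts per library and was not tested. PPM1D (WIP1, which dephosphorylates p38) rose by 1.03 in 451Lu-R and was not called in 1205Lu-R (-0.08, edgeR adjusted p = 0.421). PTPN7, a phosphatase of p38 and ERK, was at 0 in both DMSO libraries of 451Lu-R and at 16 and 11 counts under corin, at least 4.19-fold higher against a floor of 3 counts per library.

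Of the kinases that p38 phosphorylates, 3 of 7 were higher and 3 lower in each line, near the shares of all genes, with medians of 0.04 and 0.01. MKNK2, which phosphorylates the cap-binding factor eIF4E, rose by 1.62 and 1.75, and MKNK1 by 0.77 and 1.42. RPS6KA4 (MSK2) fell by 1.37 and 0.68 on the log2 scale, and MAPKAPK5 fell by 1.12 and 0.87. Of the transcription factor substrates, 7 of 12 were higher and 3 lower in each line, beside 41.3% and 40.4% of all genes higher, with medians of 0.41 and 0.18. JUN, the classic JNK substrate, rose from a mean of 22.1 ± 1.68 to 80.0 ± 2.83 CPM in 451Lu-R and from 167 ± 1.61 to 264 ± 1.82 CPM in 1205Lu-R, by 1.96 and 0.59 on the log2 scale. MEF2C rose by 1.82 and 2.96 and JUND by 0.60 and 0.74, whereas ATF1 fell by 1.21 and 0.50. DDIT3 rose by 1.40 in 1205Lu-R and gave 0.23 in 451Lu-R, which was not called (edgeR adjusted p = 0.174). Of the remaining MAPK and MAP2K genes, 4 of 10 were higher and 5 lower in 451Lu-R, and 3 higher and 6 lower in 1205Lu-R, beside 38.6% and 37.8% of all genes lower, with medians of -0.05 and -0.26. MAPK7 (ERK5) fell by 0.73 and 1.14 and MAP2K1 (MEK1) rose by 0.87 and 0.17, while NLK, a MAPK-like kinase, rose by 0.55 in 1205Lu-R and gave 0.20 in 451Lu-R without a call (edgeR adjusted p = 0.15). MAPK4, an atypical MAPK, was counted at 5 and 2 in the DMSO libraries of 451Lu-R and at 152 and 131 in the corin libraries. In 1205Lu-R both DMSO libraries had 0 counts of it and the corin libraries 60 and 59, at least 21-fold higher against the same floor.

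**Figure D5:**
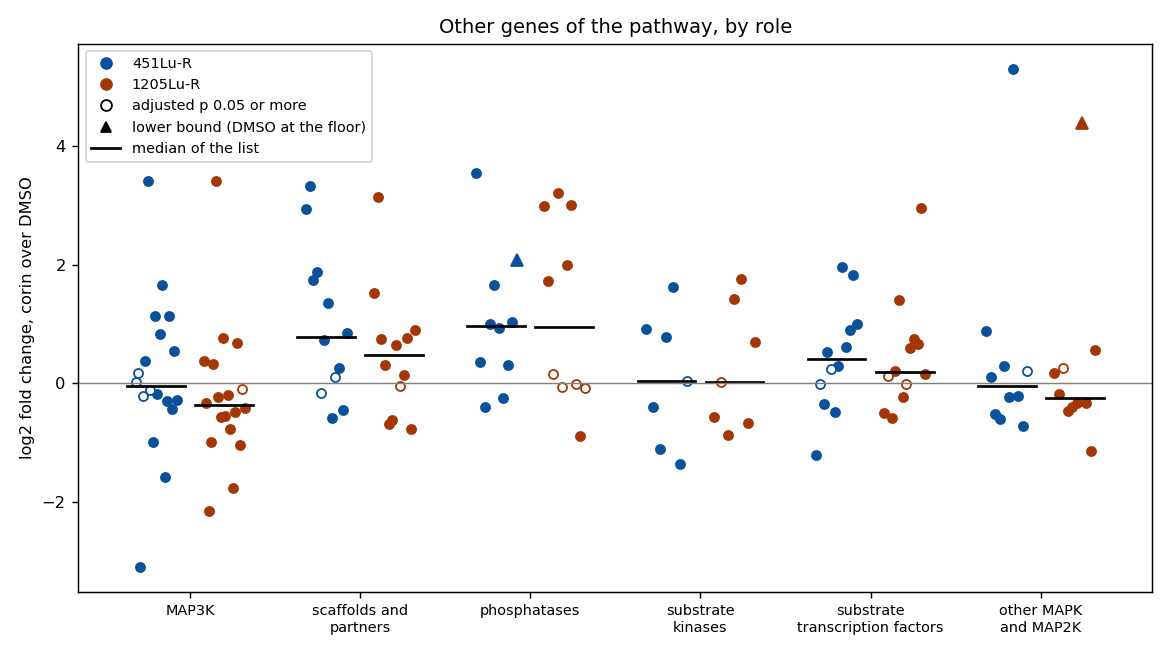
Log2 fold change of corin over DMSO (vertical axis) for the tested genes of 6 role lists (horizontal axis) in 451Lu-R (blue) and 1205Lu-R (brown). Each point is 1 gene from 2 libraries a group, open points were not called, triangles are lower bounds for genes whose DMSO libraries were both at 3 counts or fewer, and black lines are medians. The phosphatases had medians of 0.96 and 0.94, while the MAP3K genes had medians of -0.05 and -0.37.

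Across the 4 groups, the genes whose level followed MAPK14 most closely were RAB10, B4GALT5 and DEDD2, with a root mean square difference of 0.032, 0.048 and 0.05 in centered log2 CPM over 8 libraries, among 9998 genes with a mean of at least 10 CPM. For MAPK8 they were CERS6, FOCAD and CTSB, at 0.091, 0.097 and 0.10. The 4 groups share their libraries between all genes, so the likeness is a description only.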

How the data were processed

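RNA-Seq of poly(A) RNA was analysed for 8 of the 16 libraries of the series. After trimming in Trimmomatic and quantification in Salmon (GENCODE 32 transcripts), the authors deposited expected counts (estimated read counts) per gene, without normalization. Tool versions and strandedness are not given in the sources used here. For the PLX4032 libraries the tables used here hold the authors' own log2 fold changes and adjusted p-values, so these 8 libraries were not analysed here. Gene symbols, exon lengths and positions were taken from GENCODE 44 (34052 of 34228 genes matched). GENCODE 32 and 44 use the same build, GRCh38.

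Estimated counts were rounded and tested with edgeR 4.0.16 in R 4.3.3 (filterByExpr, TMM factors of 0.962 to 1.05, glmQLFit and glmQLFTest, 2-sided, Benjamini-Hochberg adjustment over all genes tested, threshold 0.05). CPM values in the text are counts scaled to a common library total, without TMM. Comparisons were fitted on the libraries of their 2 groups, the interaction on all 8. The intervals are edgeR's estimate with its standard error, per gene. Totals per library were 9516687 to 11797788. The chi-square per degree of freedom between replicates was 1.34 to 1.41, above sampling noise. The members and lists were chosen with earlier results of these data known. Named genes are all members, MAP2K7, and per list and line at most 3 called genes with the largest change and a mean of at least 1 CPM; PTPN7, DUSP2 in 451Lu-R, genomic neighbors and overlapping genes were added after their values were seen. Genes of like pattern are the 3 nearest by root mean square difference (TMM log2 CPM, prior count 2). Alternatives were DESeq2 1.42.0, RLE factors, scaling by library size alone, omitting the low-count filter, a minimum mean of 1 CPM, the replicate block, one fit of all 8 libraries, stricter thresholds, other lengths for the shares, and leaving out each library. The code was tested on simulated data with known changes.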

Additional observations from a re-analysis of the deposited data

Results flagged for a closer look

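The corin response of 7 genes differed between the cell lines by edgeR's interaction test at an adjusted p under 0.05, and these are log2 differences (1205Lu-R response less 451Lu-R response) with 2 libraries a group. Upward differences were seen for MAP2K6 (2.78), MAPK13 (3.24) and MAP2K3 (0.70). The downward ones were MAPK9 (-0.51), MAPK12 (-0.45), MAPK14 (-0.36) and MAPK8 (-0.35). All 7 were called in a test in which 49.7% of all genes were called.

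MAP2K6 and MAP2K3 started lower in 1205Lu-R with DMSO and came to close levels in both lines with corin, 64.0 and 56.4 CPM for MAP2K6 and 194 and 207 CPM for MAP2K3 in 451Lu-R and 1205Lu-R. MAPK13 had means of 0.902 and 0.606 CPM in 451Lu-R and of 1.33 and 10.0 CPM in 1205Lu-R with DMSO and corin. It had too few counts to be tested within 451Lu-R.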

How the results depend on the processing

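Of 568 alternative log2 fold changes of the 10 genes, 548 kept their direction and their side of the threshold, 14 lost the call, 2 gained it and 4 changed sign. None of the 4 was called in either setting. They were MAP2K4 in 1205Lu-R with library size only (0.00), the MAPK10 difference in response without 1205Lu-R corin replicate 2 (0.18; -0.77 to 0.18 with each library left out), and MAP2K3 between the lines with corin without a filter (-0.01) and without 451Lu-R corin replicate 1 (-0.02; -0.02 to 0.02 with each library left out). The cause was not tested. Of 252 alternatives for counts and shares, 199 stayed close to the value reported.

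At a change of at least 2-fold, the genes called were 4 higher and 0 lower in 451Lu-R, 4 higher and 1 lower in 1205Lu-R, 2 and 0 for the difference in response, 2 and 2 between the lines with DMSO, and 2 and 2 with corin, where 35.6%, 31.8%, 18.8%, 41.4% and 38.5% of all genes tested were called. At 4-fold with an adjusted p under 0.001 they were 1 and 0, 4 and 0, 2 and 0, 0 and 1, and 1 and 0, where 15.1%, 12.8%, 5.56%, 20.7% and 17% of all genes were called. The corin counts at both thresholds include MAPK10 in both lines and MAPK13 in 1205Lu-R. These passed the filter on low counts only through their corin libraries. The other pathway genes called were 17 higher and 5 lower in 451Lu-R at 2-fold and 6 higher and 1 lower at 4-fold, against 13 higher and 4 lower, then 7 higher and 1 lower, for 1205Lu-R, and DESeq2 gave 14 lower in 451Lu-R in place of 22. The genes with a response further downward in 1205Lu-R numbered 4, but 2 with DESeq2, 1 with library size only and 2 to 4 with each library left out, the 2 without 451Lu-R corin replicate 1.

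The replicate block left the number of genes called in each comparison as it was (6 higher and 3 lower in 451Lu-R), and the deviations of libraries with the same number had a correlation of 0.0595 for 451Lu-R and of -0.151 for 1205Lu-R, and between the lines of 0.24 under DMSO and -0.0799 under corin. Crossing the numbers in 1205Lu-R, an alternative chosen after seeing the data, also gave 7 higher and 2 lower.

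Shares in the family moved with the length used, in the order 451Lu-R DMSO and corin, then 1205Lu-R DMSO and corin. With the longest transcript, MAPK14 was at 42.2%, 64.7%, 41.4% and 61.8%, MAPK9 at 79.2%, 74.8%, 81.0% and 76.2%, and MAP2K3 at 63.0%, 83.4%, 68.5% and 88.6%. With no division by length, MAPK14 was at 42.5%, 63.9%, 48.7% and 65.4%, MAPK9 at 74.8%, 68.9%, 77.1% and 71.5%, and MAP2K3 at 45.1%, 64.3%, 55.8% and 71.5%. The rise of the MAPK14 and MAP2K3 shares with corin held under each length.

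Limits are 2 libraries a group of unknown origin, few counts for MAPK13 and MAPK10, and exon overlaps for MAPK12 and MAPK10. Where tested against DMSO, MAPK13 and MAPK10 passed the filter on low counts only through their corin libraries.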
